A study of Mus musculus with 12 samples.

Results

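Fatty acid uptake and oxidation was followed through 37 genes, chosen by symbol for their known roles from the 17471 genes listed in the library files. All 37 were listed in all 12 libraries and all 37 passed the filter on low counts that left 13678 genes. They cover the route of a long-chain fatty acid from the capillary wall to acetyl-CoA, together with 3 transcriptional regulators, and were read in RNA sequencing libraries of mouse left ventricle, 3 in each of 4 groups. Every mouse carried floxed Yap alleles, was 6 to 10 weeks old, had parental lines from Jackson Laboratory stocks 027929 and 029645, received a diet with tamoxifen citrate from the time of surgery, and gave its left ventricle 4 days later.

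The groups were siblings that differed in 2 respects. Cre-positive mice had a copy of MerCreMer, a recombinase that tamoxifen activates, at the endogenous Postn (periostin) locus, and Cre-negative mice had wildtype Postn. Surgery either tied off the left anterior descending artery for good, which gives a myocardial infarction (MI), or was a sham operation. The recombinase is thus driven by the Postn promoter, which is active in activated fibroblasts of injured heart, and is not directed to the cardiomyocytes that burn most of the fatty acids. The labels tell the replicates apart by number only, so p-values measure the spread between these libraries. Yap1 in the whole ventricle ranged over 96.1 to 107 CPM (counts scaled to a common library total) in infarcted Cre-negative hearts and 96.6 to 101 CPM in infarcted Cre-positive hearts, and Postn over 1699.5 to 1876 and 649 to 719 CPM.

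The adult heart takes most of its energy from fatty acids. Lipoprotein lipase frees them from circulating triglyceride, membrane proteins such as CD36 and binding proteins carry them in, acyl-CoA synthetases activate them, and the carnitine shuttle moves them into the mitochondrial matrix. There a spiral of dehydrogenation, hydration, a further dehydrogenation and thiolysis releases acetyl-CoA, while electrons pass through the electron transfer flavoproteins to the respiratory chain. In injured or failing heart, a lower output of this pathway is a textbook feature.

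Infarction was followed by lower transcript levels along the whole route. In Cre-negative hearts 36 of the 37 genes fell and 0 rose, with a median log2 difference of -1.07 (range -1.42 for Ech1 to -0.34 for Acaa1a), where 24.4% of all genes tested fell and their median was 0.02. In Cre-positive hearts 34 of 37 fell and 0 rose, with a median of -0.85 (range -1.43 for Ppargc1a to -0.13 for Acaa1a), where 19.5% of all genes tested fell and their median was 0.02. A gene was called at an adjusted p under 0.05 (edgeR quasi-likelihood test, Benjamini-Hochberg over all 13678 genes, two-sided). In plain CPM the infarcted libraries lay below the sham libraries with no overlap for 35 of the 37 genes in Cre-negative hearts, against 19% of all genes, and for 26 in Cre-positive hearts, against 10.5%. Plain CPM are counts over the library total, while the fitted log2 differences also correct for composition. Without that correction the median of all genes moved to 0.27 and 0.24, and 32 and 28 of the 37 genes fell, Cd36, Mlycd, Hsd17b4 and Acaa1a losing the call in Cre-negative hearts and Cd36, Slc27a1, Fabp3, Acadl, Abcd3 and Hsd17b4 in Cre-positive hearts. With only the groups compared in the fit, 37 genes fell in Cre-negative hearts and 28 in Cre-positive hearts, where Cd36, Slc27a1, Fabp3, Mlycd, Acadl and Abcd3 lost the call. With median-of-ratios size factors, and with DESeq2, 36 of 37 fell in Cre-positive hearts, Lpl and Ehhadh being the genes gained. Without the second Cre-positive sham library 31 genes fell in Cre-positive hearts, the deepest was Ppara (-1.18), and the log2 difference of 10 genes shrank by over 1.5 times. The tests of infarction in the authors' deposited tables called 37 of 37 lower in Cre-negative hearts, where 21.7% of their genes were lower, and 33 lower in Cre-positive hearts, where 13% were.

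**Figure D1:**
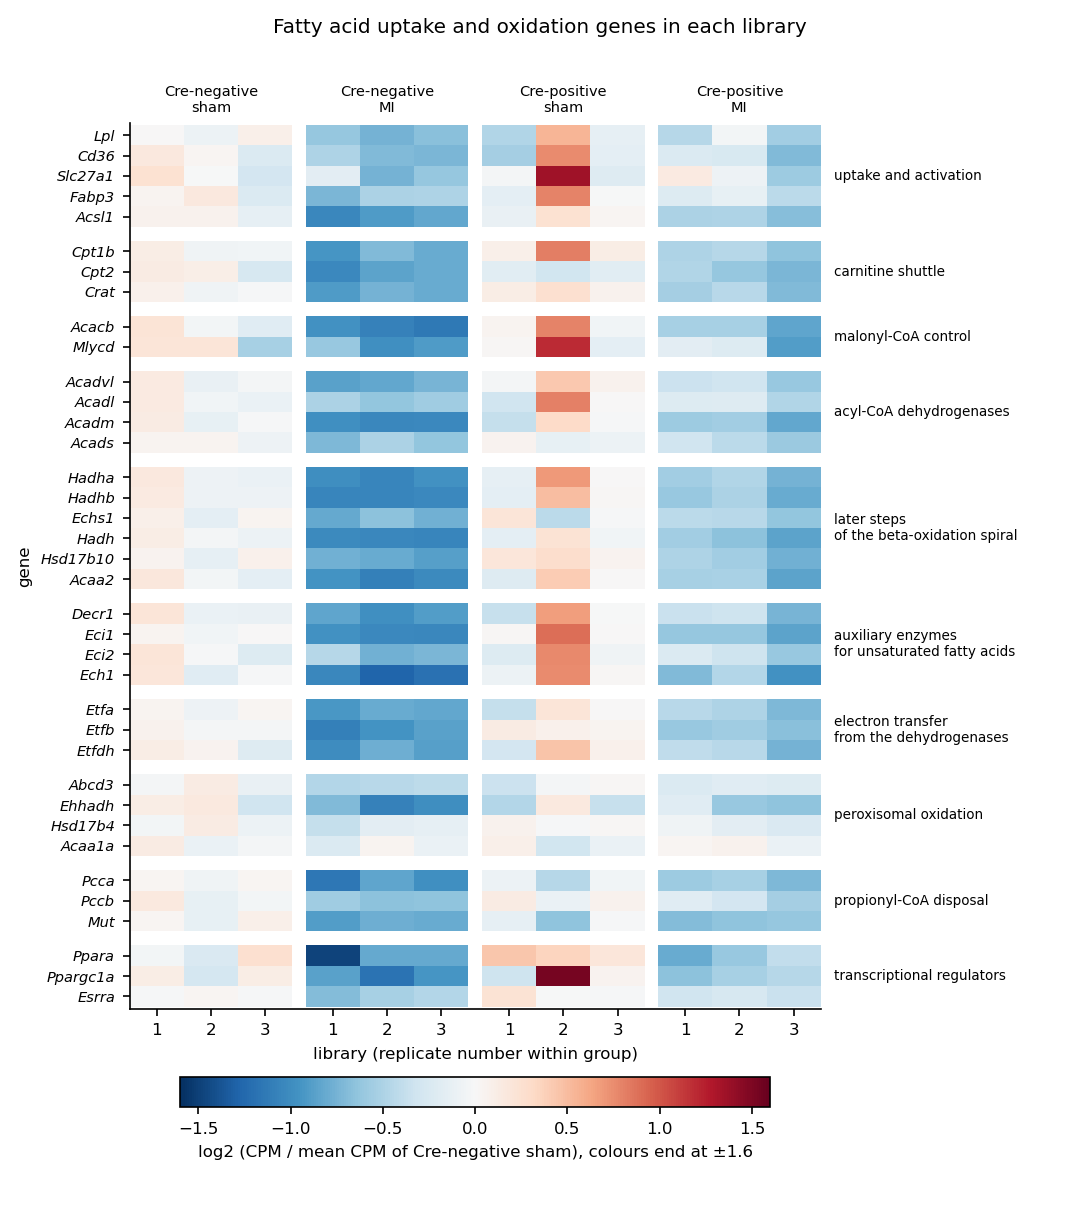
Each of the 37 genes (rows, ordered by role) in each of the 12 libraries (columns), coloured by the log2 ratio of its CPM to the mean of the 3 Cre-negative sham libraries. The 6 infarcted libraries are mostly below that mean, and the second Cre-positive sham library stands above the other sham libraries for 24 of the 37 genes.

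All 3 transcriptional regulators fell in both genotypes. Ppara (chromosome 15, 85734910 to 85806851 in mm10), the fatty-acid-activated nuclear receptor that switches on oxidation genes, had 106, 92.3 and 130.4 CPM in the Cre-negative sham hearts, 39.4, 62.3 and 62.4 in the infarcted Cre-negative hearts, 149, 141 and 125 in the Cre-positive sham hearts and 62.6, 72.1 and 83.2 in the infarcted Cre-positive hearts. All infarcted libraries lay below all sham libraries of the same genotype, and the 3 infarcted Cre-positive libraries lay above the 3 infarcted Cre-negative ones. The log2 difference of Ppara was -1.25 ± 0.20 in Cre-negative hearts (2.38-fold lower, edgeR adjusted p = 0.000192) and -1.16 ± 0.19 in Cre-positive hearts (2.23-fold lower, adjusted p = 0.000468). Esrra, the oestrogen-related receptor alpha that drives mitochondrial genes, had 146, 152 and 147 CPM in the Cre-negative sham hearts, 91.3, 102 and 107 in the infarcted Cre-negative hearts, 173, 147 and 146 in the Cre-positive sham hearts and 118, 123 and 116 in the infarcted Cre-positive hearts. Again no infarcted library reached a sham library of its genotype. Its log2 difference was -0.81 ± 0.10 in Cre-negative hearts (1.75-fold lower, edgeR adjusted p = 2.55e-05) and -0.61 ± 0.10 in Cre-positive hearts (1.53-fold lower, adjusted p = 0.00033). Ppargc1a, the coactivator of both receptors, had 194, 146 and 194 CPM in the Cre-negative sham hearts, 97.3, 78.7 and 92.7 in the infarcted Cre-negative hearts, 142, 512 and 184 in the Cre-positive sham hearts and 113, 123 and 129 in the infarcted Cre-positive hearts. The second Cre-positive sham library was the highest of the 12 by far. The log2 difference of Ppargc1a was -1.24 ± 0.37 and -1.43 ± 0.37 (adjusted p = 0.0137 and 0.00782, edgeR), and without the second Cre-positive sham library the latter was -0.67 (adjusted p = 0.00361, edgeR).

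Because the nuclear receptors among the regulators bind DNA, the promoters of the member genes were searched for the elements of those receptors. RefSeq promoter windows on GRCm38.p6 (250 bases before to 50 after each start) were available for 30 of the 37 genes, 35 windows in all. Neither TNAAGGTCA nor TCAAGGTCA, the extended elements of oestrogen-related receptors, nor the direct repeat of AGGTCA with 1 base between the copies, which PPAR binds with its partner, was found on either strand of the 35 windows, and these letters occur in 1.28%, 0.423% and 0.0396% of all 32851 windows. The half-site AGGTCA, contained in each of those elements and added after they gave no match, was found in 7 windows of 6 genes, against 16.3% of all windows. A match is a run of letters and not a bound site. Windows of 3 genes are shown, for Acadvl and Acadm, which open the spiral, and Echs1, which follows them. Each is the 250 bases before the start, 5′ to 3′ on the gene's strand, with the half-site or its reverse complement in capitals.
Acadvl, chr11:70015429-70015678, minus strand: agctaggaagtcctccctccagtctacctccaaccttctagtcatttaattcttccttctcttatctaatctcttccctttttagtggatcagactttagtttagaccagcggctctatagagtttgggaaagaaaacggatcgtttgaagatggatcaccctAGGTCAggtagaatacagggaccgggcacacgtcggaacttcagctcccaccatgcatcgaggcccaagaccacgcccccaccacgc
Echs1, chr7:140116422-140116671, minus strand: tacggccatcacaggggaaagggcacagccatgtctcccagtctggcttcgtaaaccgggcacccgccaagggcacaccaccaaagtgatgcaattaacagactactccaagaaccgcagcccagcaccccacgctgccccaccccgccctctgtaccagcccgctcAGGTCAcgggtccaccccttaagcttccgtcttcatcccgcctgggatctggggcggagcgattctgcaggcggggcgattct
Acadm, chr3:153944644-153944893, minus strand: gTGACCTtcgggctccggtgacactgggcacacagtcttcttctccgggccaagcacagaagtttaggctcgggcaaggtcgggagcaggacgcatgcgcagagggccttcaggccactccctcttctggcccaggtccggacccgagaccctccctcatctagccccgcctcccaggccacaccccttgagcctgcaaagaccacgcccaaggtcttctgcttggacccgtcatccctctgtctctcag

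Of the 5 genes of uptake and activation, 4 fell in Cre-negative hearts and 4 in Cre-positive hearts. Acsl1 (chromosome 8, 46471037 to 46536051), the main cardiac acyl-CoA synthetase, had 1371, 1375 and 1190.2 CPM in the Cre-negative sham hearts, 637, 700.4 and 740.4 in the infarcted Cre-negative hearts, 1214, 1549.7 and 1339 in the Cre-positive sham hearts and 925, 930.5 and 819 in the infarcted Cre-positive hearts. The infarcted libraries were the lowest in both genotypes, without overlap. Acsl1 differed by -1.17 ± 0.13 in Cre-negative hearts (2.24-fold lower, edgeR adjusted p = 1.21e-05) and -0.85 ± 0.13 in Cre-positive hearts (1.80-fold lower, adjusted p = 0.000207) on the log2 scale. Lpl, the lipase that frees fatty acids at the endothelium, had 7302, 6801 and 7747 CPM in the Cre-negative sham hearts, 4740.1, 4311 and 4564 in the infarcted Cre-negative hearts, 5239, 10629 and 6568 in the Cre-positive sham hearts and 5307, 7065 and 4945 in the infarcted Cre-positive hearts. In Cre-positive hearts its groups overlapped, since 1 infarcted library reached 7065 CPM and 1 sham library lay at 5239 CPM. Lpl differed by -0.93 ± 0.24 in Cre-negative hearts (1.91-fold lower, edgeR adjusted p = 0.00539) and -0.60 ± 0.24 in Cre-positive hearts (1.52-fold lower, adjusted p = 0.0533), and the second value did not pass the test. It passed when any 1 of 3 Cre-positive libraries (sham 1, sham 3 or MI 2) was left out, with median-of-ratios size factors and with DESeq2, and without Cre-positive sham 2 it shrank to -0.28 (adjusted p = 0.160, edgeR).

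The other 3 uptake genes had wider spreads in Cre-positive hearts. Cd36, the fatty acid translocase, gave a log2 difference of -0.89 ± 0.27 in Cre-negative hearts (1.85-fold lower, edgeR adjusted p = 0.0162) and -0.74 ± 0.27 in Cre-positive hearts (1.67-fold lower, adjusted p = 0.0431). The Cre-negative call of Cd36 was lost without Cre-negative MI 2, and its Cre-positive call without any 1 of the 6 infarcted libraries or Cre-positive sham 2, which left -0.30 (adjusted p = 0.156, edgeR). Fabp3, the heart fatty acid binding protein, was by far the most abundant member per transcript length, with 4169 ± 571 FPKM in Cre-negative sham hearts and 2808 ± 249 FPKM after infarction (SD, n = 3). Fabp3 differed by -0.81 ± 0.22 in Cre-negative hearts (1.76-fold lower, edgeR adjusted p = 0.00854) and -0.76 ± 0.22 in Cre-positive hearts (1.70-fold lower, adjusted p = 0.0146), and the second call was lost without Cre-positive MI 3, under library totals and with only the groups compared. Without Cre-positive sham 2 it was -0.44 (adjusted p = 0.0179, edgeR). Slc27a1, a fatty acid transport protein, was the only member not called in Cre-negative hearts, with -0.75 ± 0.36 (adjusted p = 0.0970, edgeR). In Cre-positive hearts Slc27a1 passed narrowly at -0.94 ± 0.36 (adjusted p of 0.05 after rounding, edgeR), with infarcted and sham libraries overlapping in both genotypes. Fitting only the groups compared removed the Cre-positive call of Slc27a1 and made a call in Cre-negative hearts, as did leaving out Cre-positive sham 2, which left -0.29 in Cre-positive hearts. The Cre-positive call was also lost under library totals and without any 1 of 9 libraries, all but Cre-negative sham 1 and Cre-positive sham 1 and 3.

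Of the carnitine shuttle genes in the set, which leaves out the translocase Slc25a20, 3 of 3 fell in each genotype. Crat (chromosome 2, 30400476 to 30416017), the matrix carnitine acetyltransferase that buffers acetyl-CoA, had 775, 701 and 722 CPM in the Cre-negative sham hearts, 390.4, 433 and 417 in the infarcted Cre-negative hearts, 793, 872 and 771 in the Cre-positive sham hearts and 501, 540.1 and 448 in the infarcted Cre-positive hearts. Each infarcted library was below each sham library of its genotype. The fitted log2 difference of Crat was -1.07 ± 0.11 in Cre-negative hearts (2.10-fold lower, edgeR adjusted p = 9.14e-06) and -0.94 ± 0.11 in Cre-positive hearts (1.92-fold lower, adjusted p = 3.98e-05). Cpt2, which returns acyl groups from carnitine to CoA inside the mitochondrion, had 296, 291 and 224 CPM in the Cre-negative sham hearts, 132, 149 and 154 in the infarcted Cre-negative hearts, 238, 219 and 238 in the Cre-positive sham hearts and 193, 176 and 162 in the infarcted Cre-positive hearts. Its infarcted Cre-positive libraries lay between the infarcted Cre-negative and the sham libraries, with no overlap on either side. Cpt2 differed by -1.14 ± 0.12 in Cre-negative hearts (2.21-fold lower, edgeR adjusted p = 1e-05) and -0.62 ± 0.12 in Cre-positive hearts (1.53-fold lower, adjusted p = 0.00142). Cpt1b, the muscle form of the entry enzyme, differed by -1.06 ± 0.18 and -1.15 ± 0.18 (adjusted p = 0.000401 and 0.000336, edgeR).

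Malonyl-CoA blocks the entry enzyme, and both genes of the set that act on its level fell, Acacb, which makes it, and Mlycd, which removes it. Acacb (chromosome 5, 114146321 to 114250761), the acetyl-CoA carboxylase of the mitochondrial surface, had 597, 497 and 449 CPM in the Cre-negative sham hearts, 262, 243 and 232 in the infarcted Cre-negative hearts, 531, 889.6 and 496 in the Cre-positive sham hearts and 356, 357 and 287 in the infarcted Cre-positive hearts. All 6 infarcted libraries were below all 6 sham libraries. Acacb differed by -1.32 ± 0.21 in Cre-negative hearts (2.49-fold lower, edgeR adjusted p = 0.000214) and -1.17 ± 0.21 in Cre-positive hearts (2.25-fold lower, adjusted p = 0.000706). Acaca, a further acetyl-CoA carboxylase outside the set, moved the other way in plain CPM, without overlap. Acaca lay at 20.2 to 26.2 CPM in the sham libraries and 27.2 to 68.8 CPM in the infarcted libraries. The test did not call Acaca higher in either genotype. Acacb made up 95.6 to 97.4% of the FPKM of these carboxylases in Cre-positive sham hearts and 84.7 to 93.3% after infarction. In Cre-negative hearts these shares were 95.9 to 96.2% and 87.6 to 89.8%. Mlycd, malonyl-CoA decarboxylase, had 127, 127 and 76.3 CPM in the Cre-negative sham hearts, 72.0, 55.8 and 58.4 in the infarcted Cre-negative hearts, 111, 252 and 98.2 in the Cre-positive sham hearts and 97.7, 94.8 and 59.3 in the infarcted Cre-positive hearts. The groups of Mlycd did not overlap within a genotype, and the sham values ran from 76.3 to 252 CPM. Its log2 difference was -1.07 ± 0.34 in Cre-negative hearts (2.10-fold lower, edgeR adjusted p = 0.0173) and -1.11 ± 0.33 in Cre-positive hearts (2.15-fold lower, adjusted p = 0.0173). The first call was lost without Cre-negative MI 2 or Cre-negative sham 1, and the second without Cre-positive MI 3, with only the groups compared, and without Cre-positive sham 2, which left -0.58 (adjusted p = 0.0516, edgeR).

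All 4 acyl-CoA dehydrogenases, which open the spiral on chains of falling length, fell in both genotypes, with median log2 differences of -0.96 and -0.80. Acads (chromosome 5, 115110299 to 115119346), the short-chain enzyme, had 196, 195 and 179 CPM in the Cre-negative sham hearts, 116, 134 and 123 in the infarcted Cre-negative hearts, 198, 173 and 178 in the Cre-positive sham hearts and 152, 140.4 and 126 in the infarcted Cre-positive hearts. Acads separated infarcted from sham hearts in each genotype, and its infarcted groups overlapped between genotypes. The log2 difference was -0.86 ± 0.10 in Cre-negative hearts (1.81-fold lower, edgeR adjusted p = 2.2e-05) and -0.62 ± 0.10 in Cre-positive hearts (1.54-fold lower, adjusted p = 0.000376). Acadm, the medium-chain enzyme, had 1364, 1131 and 1225 CPM in the Cre-negative sham hearts, 628, 604 and 608 in the infarcted Cre-negative hearts, 950.4, 1532 and 1221 in the Cre-positive sham hearts and 827, 845 and 697 in the infarcted Cre-positive hearts. Among infarcted hearts the Cre-positive libraries of Acadm were the higher, with no overlap. Acadm differed by -1.27 ± 0.17 in Cre-negative hearts (2.41-fold lower, edgeR adjusted p = 5.39e-05) and -0.87 ± 0.17 in Cre-positive hearts (1.83-fold lower, adjusted p = 0.00115). Acadvl and Acadl, for very long and long chains, differed by -1.06 ± 0.15 and -0.82 ± 0.23 in Cre-negative hearts (adjusted p = 8.08e-05 and 0.0107, edgeR) and by -0.82 ± 0.15 and -0.77 ± 0.23 in Cre-positive hearts (adjusted p = 0.000757 and 0.0174). The Cre-positive call of Acadl was lost without Cre-positive MI 3, under library totals and with only the groups compared, and without Cre-positive sham 2 its value was -0.40.

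The later steps held the deepest median of the enzyme groups in Cre-negative hearts, -1.26, and all 6 genes fell in each genotype. Hadh (chromosome 3, 131233419 to 131272101), the 3-hydroxyacyl-CoA dehydrogenase of short and medium chains, had 877, 788 and 761 CPM in the Cre-negative sham hearts, 398, 391 and 387 in the infarcted Cre-negative hearts, 724, 948 and 779.7 in the Cre-positive sham hearts and 549, 513 and 449 in the infarcted Cre-positive hearts. No infarcted library of Hadh reached a sham library of its genotype. It differed by -1.29 ± 0.13 in Cre-negative hearts (2.45-fold lower, edgeR adjusted p = 5.69e-06) and -0.93 ± 0.13 in Cre-positive hearts (1.90-fold lower, adjusted p = 0.000107). Hsd17b10, a matrix dehydrogenase that also acts on branched-chain products, had 165, 144 and 168 CPM in the Cre-negative sham hearts, 93.5, 91.3 and 86.7 in the infarcted Cre-negative hearts, 182, 194 and 165 in the Cre-positive sham hearts and 113, 108 and 93.5 in the infarcted Cre-positive hearts. Infarcted and sham groups did not overlap, and the infarcted groups of the genotypes met at 93.5 CPM. Hsd17b10 differed by -1.06 ± 0.11 in Cre-negative hearts (2.09-fold lower, edgeR adjusted p = 7.84e-06) and -1.01 ± 0.11 in Cre-positive hearts (2.02-fold lower, adjusted p = 1.77e-05). Hadha and Hadhb, the subunits of the trifunctional protein that carries out the last 3 steps on long chains, had log2 differences of -1.26 ± 0.20 and -1.30 ± 0.17 in Cre-negative hearts and -1.06 ± 0.20 and -1.01 ± 0.17 in Cre-positive hearts, and Echs1 and Acaa2, the enoyl hydratase and the thiolase, -1.0 and -1.27, then -0.67 and -0.95.

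Auxiliary enzymes that shift or reduce the double bonds of unsaturated fatty acids fell in 4 of 4 cases in each genotype. Ech1 (chromosome 7, 28825338 to 28832239), a dienoyl-CoA isomerase, had 1580.1, 1205 and 1364 CPM in the Cre-negative sham hearts, 669.5, 571 and 604 in the infarcted Cre-negative hearts, 1299, 2341 and 1395 in the Cre-positive sham hearts and 845, 997 and 707 in the infarcted Cre-positive hearts. The 3 infarcted Cre-negative libraries were the lowest of the 12. Ech1 differed by -1.42 ± 0.23 in Cre-negative hearts (2.68-fold lower, edgeR adjusted p = 0.00021) and -1.21 ± 0.22 in Cre-positive hearts (2.32-fold lower, adjusted p = 0.000918), the largest fall among the 37 genes in Cre-negative hearts. Eci1, the enoyl-CoA isomerase of mitochondria, had 342, 320.1 and 332 CPM in the Cre-negative sham hearts, 169, 163 and 161 in the infarcted Cre-negative hearts, 335, 616 and 332 in the Cre-positive sham hearts and 216, 216 and 182 in the infarcted Cre-positive hearts. Apart from the second Cre-positive sham library, the sham values of Eci1 lay within 320.1 to 342 CPM. Eci1 differed by -1.26 ± 0.21 in Cre-negative hearts (2.40-fold lower, edgeR adjusted p = 0.000268) and -1.29 ± 0.21 in Cre-positive hearts (2.45-fold lower, adjusted p = 0.000322). Eci2 and Decr1 gave -0.90 ± 0.23 and -1.15 ± 0.23 in Cre-negative hearts and -0.84 ± 0.23 and -0.86 ± 0.23 in Cre-positive hearts, where the values were -0.49 and -0.54 without the second sham library.

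Electron transfer from the dehydrogenases fell in 3 of 3 genes in each genotype, and held the smallest p-value of the 37 genes in both. Etfb (chromosome 7, 43444072 to 43457800), the beta subunit of the electron transfer flavoprotein, had 565, 528 and 529.9 CPM in the Cre-negative sham hearts, 253, 279 and 296 in the infarcted Cre-negative hearts, 594, 570.2 and 557 in the Cre-positive sham hearts and 357, 366 and 339 in the infarcted Cre-positive hearts. The 4 groups were tight, and the infarcted Cre-positive libraries lay between the others without overlap. Etfb differed by -1.22 ± 0.10 in Cre-negative hearts (2.32-fold lower, edgeR adjusted p = 1.57e-06) and -0.93 ± 0.10 in Cre-positive hearts (1.90-fold lower, adjusted p = 1.76e-05). Etfa, the alpha subunit, had 566, 517 and 562 CPM in the Cre-negative sham hearts, 287, 314 and 307 in the infarcted Cre-negative hearts, 421, 635 and 550.4 in the Cre-positive sham hearts and 404, 389 and 333 in the infarcted Cre-positive hearts. Its infarcted Cre-positive libraries reached 404 CPM, just below the lowest sham library of that genotype at 421 CPM. Etfa differed by -1.11 ± 0.15 in Cre-negative hearts (2.15-fold lower, edgeR adjusted p = 5.82e-05) and -0.74 ± 0.15 in Cre-positive hearts (1.67-fold lower, adjusted p = 0.00148), and Etfdh, the oxidoreductase that passes the electrons to ubiquinone, by -1.13 ± 0.18 and -0.87 ± 0.18.

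Peroxisomal oxidation, which shortens very long and branched chains, moved least. All 4 genes fell in Cre-negative hearts (median log2 difference -0.58) and 2 in Cre-positive hearts (median -0.37). Abcd3 (chromosome 3, 121758904 to 121815302), a peroxisomal membrane transporter, had 115, 128 and 108 CPM in the Cre-negative sham hearts, 84.7, 86.0 and 87.9 in the infarcted Cre-negative hearts, 92.1, 115 and 119 in the Cre-positive sham hearts and 100.2, 103 and 101 in the infarcted Cre-positive hearts. Its Cre-positive groups overlapped. Abcd3 differed by -0.69 ± 0.10 in Cre-negative hearts (1.61-fold lower, edgeR adjusted p = 0.000147) and -0.33 ± 0.10 in Cre-positive hearts (1.26-fold lower, adjusted p = 0.0216), and the second call was lost without Cre-positive MI 1 or MI 3, under library totals and with only the groups compared. Ehhadh, the peroxisomal bifunctional enzyme and the lowest member per length, had 19.3, 19.9 and 14.3 CPM in the Cre-negative sham hearts, 10.9, 8.40 and 8.97 in the infarcted Cre-negative hearts, 12.9, 19.9 and 13.8 in the Cre-positive sham hearts and 15.6, 11.7 and 11.4 in the infarcted Cre-positive hearts. In Cre-positive hearts 1 infarcted library lay above 2 of the sham libraries. Ehhadh differed by -1.16 ± 0.20 in Cre-negative hearts (2.24-fold lower, edgeR adjusted p = 0.000379) and -0.50 ± 0.20 in Cre-positive hearts (1.41-fold lower, adjusted p = 0.0558), and the second value did not pass, though it did without any 1 of 5 libraries (Cre-negative sham 1 or 3, Cre-positive sham 1 or 3, Cre-positive MI 1), with median-of-ratios size factors and with DESeq2. Without Cre-positive sham 2 it was -0.30 (adjusted p = 0.174, edgeR). Hsd17b4, a bifunctional enzyme of the same organelle, differed by -0.47 ± 0.09 and -0.41 ± 0.09, and both calls were lost under library totals. Acaa1a, the peroxisomal thiolase, which has a near-identical copy, Acaa1b, with which reads may be shared, differed by -0.34 ± 0.13 (adjusted p = 0.0359, edgeR) and -0.13 ± 0.13 (adjusted p = 0.412). The plain CPM of Acaa1a overlapped in both genotypes, and its Cre-negative call was lost under library totals and without any 1 of 4 Cre-negative libraries (MI 1, MI 3, sham 1 or sham 3). In Cre-positive hearts the direction of Acaa1a turned under library totals, to 0.09.

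Disposal of propionyl-CoA, the product of odd chains, fell in 3 of 3 genes in each genotype. Pcca (chromosome 14, 122484365 to 122889944), the alpha subunit of propionyl-CoA carboxylase, had 98.8, 91.7 and 98.9 CPM in the Cre-negative sham hearts, 43.4, 53.6 and 49.0 in the infarcted Cre-negative hearts, 90.2, 70.5 and 92.7 in the Cre-positive sham hearts and 64.5, 66.8 and 58.5 in the infarcted Cre-positive hearts. Infarcted Cre-negative libraries were the lowest and did not overlap with any other group. Pcca differed by -1.24 ± 0.12 in Cre-negative hearts (2.35-fold lower, edgeR adjusted p = 6.26e-06) and -0.64 ± 0.12 in Cre-positive hearts (1.56-fold lower, adjusted p = 0.00116). Mut, methylmalonyl-CoA mutase, had 138, 122 and 143 CPM in the Cre-negative sham hearts, 72.7, 78.3 and 77.3 in the infarcted Cre-negative hearts, 122, 85.9 and 133 in the Cre-positive sham hearts and 83.3, 85.9 and 87.9 in the infarcted Cre-positive hearts. In Cre-positive hearts the sham and infarcted groups overlapped through the second sham library. Mut differed by -1.07 ± 0.14 in Cre-negative hearts (2.10-fold lower, edgeR adjusted p = 4.71e-05) and -0.63 ± 0.14 in Cre-positive hearts (1.55-fold lower, adjusted p = 0.00293), and Pccb, the other carboxylase subunit, by -0.87 ± 0.12 and -0.60 ± 0.12.

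**Figure D2:**
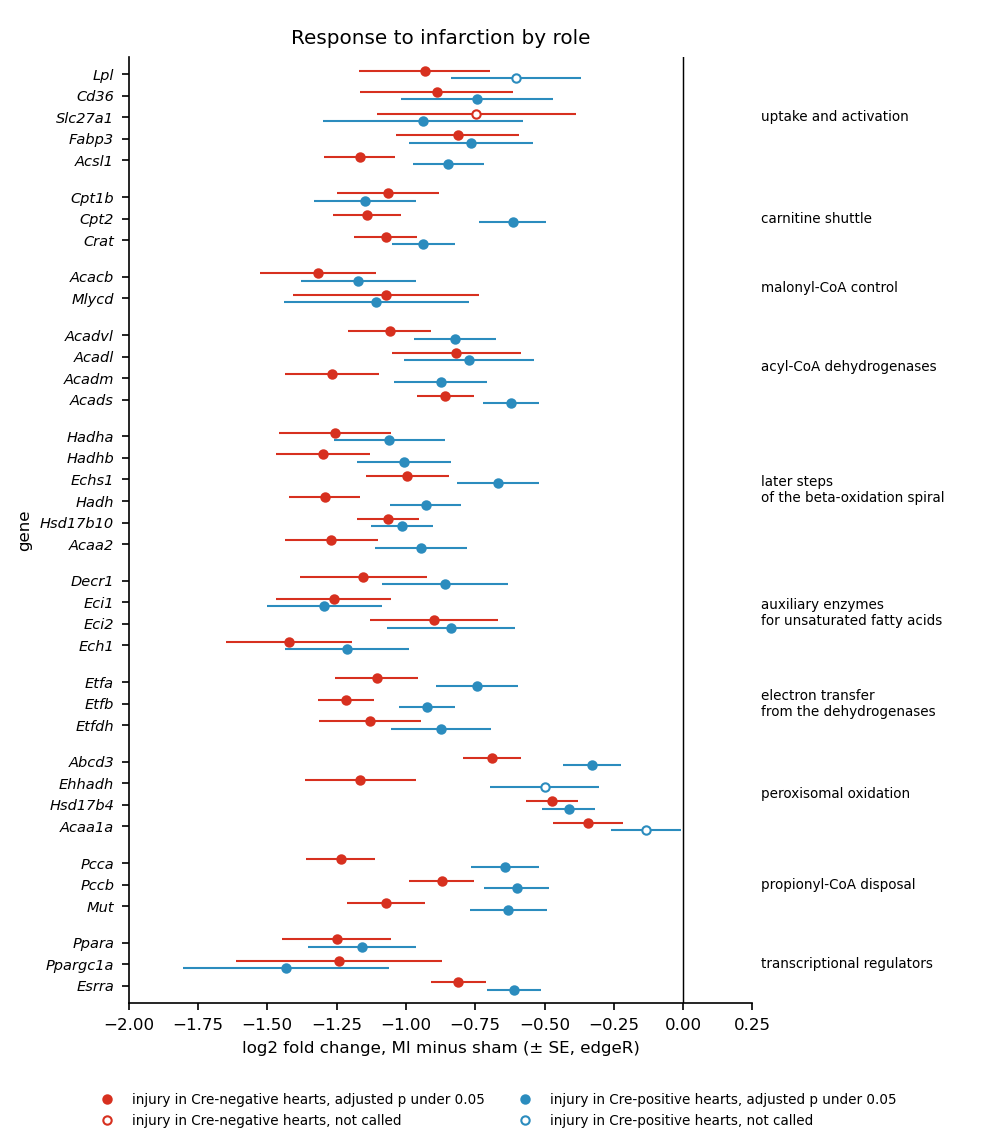
Log2 difference between infarcted and sham hearts (horizontal axis, bars are standard errors) for each of the 37 genes in Cre-negative and Cre-positive hearts, grouped by role, with open circles where the adjusted p was not under 0.05. All points are below 0 (Acaa1a in Cre-positive hearts turns to 0.09 under library totals), and 32 of the 37 genes have the larger fall in Cre-negative hearts.

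Per transcript length the order of the members was much the same in all 4 groups. Fabp3, Lpl, Ech1, Hadhb and Acadl held ranks 1 to 5 by mean FPKM in every group, and Ppara and Ehhadh ranks 36 and 37. Lpl had 1781 ± 116 FPKM in Cre-negative sham hearts and Ech1 1232 ± 168, which do not overlap (SD, n = 3), and Acadm with 601 ± 56.9 and Etfb with 601 ± 23.3 could not be told apart. Across the 37 genes the responses of the 2 genotypes, which share no library, had a Pearson r of 0.719 and a Spearman rho of 0.658, as a description over genes, which are not independent.

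In whole ventricle, fewer cells of a type and less RNA per cell cannot be told apart, and markers of several cell types moved with infarction, whose part in the result was not tested. The 37 genes summed to 29309 to 32588 CPM in Cre-negative sham hearts, 17233 to 17654 in infarcted Cre-negative hearts, 26224 to 44903 in Cre-positive sham hearts and 19404 to 24667 in infarcted Cre-positive hearts. A list of 20 cardiomyocyte genes (contractile and energy proteins) summed to 148661 to 158346 CPM in Cre-negative sham hearts, 72890.1 to 95537 in infarcted Cre-negative hearts, 94991 to 166751 in Cre-positive sham hearts and 99589 to 112211 in infarcted Cre-positive hearts. In that list 19 of 20 fell in Cre-negative hearts (median -1.06) and 14 of 20 in Cre-positive hearts (median -0.67), near the medians of the fatty acid genes. All 12 macrophage and monocyte genes rose in both genotypes (median 2.71 and 2.85), from 355 to 447 CPM in all in Cre-negative sham hearts to 2748 to 3424 after infarction, and from 123 to 434 to 2042 to 2312 in Cre-positive hearts. All 10 activated fibroblast genes rose in both (median 3.97 and 4.63), with sums of 1162 to 1610.2 CPM in Cre-negative sham hearts, 20149 to 22782 in infarcted Cre-negative hearts, 209 to 861 in Cre-positive sham hearts and 14118 to 15448 in infarcted Cre-positive hearts. This list includes Postn, whose locus holds the recombinase in Cre-positive mice, and the part of that allele was not tested. Among all 13678 genes 4090 rose in Cre-negative and 3514 in Cre-positive hearts.

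Lists for further cell types were also read. Of 10 endothelial genes 1 rose in Cre-negative and 1 fell in Cre-positive hearts (sums 891 to 1083 CPM in Cre-negative sham hearts, 1167 to 1241 in infarcted Cre-negative hearts, 841 to 999.9 in Cre-positive sham hearts and 1025 to 1156 in infarcted Cre-positive hearts). Of 7 tested adipocyte genes 5 and 6 rose (sums 48.4 to 90.2 CPM in Cre-negative sham hearts, 134 to 281 in infarcted Cre-negative hearts, 50.6 to 139 in Cre-positive sham hearts and 83.7 to 716 in infarcted Cre-positive hearts), and Adipoq, the adipocyte hormone, was at 0.366 to 0.749 CPM in the 6 sham libraries, 29.0, 14.3 and 13.7 in infarcted Cre-negative hearts and 63.2, 2.2 and 16.7 in infarcted Cre-positive hearts. Lep was at 0 in 3 of the sham libraries. Of 5 tested atrial genes 2 rose in each genotype, and Bmp10 was at 0 in 11 of 12 libraries. Nppa and Myl1 had a higher FPKM in every infarcted library than in every sham library. The other 3 had lower fitted levels after infarction in Cre-negative hearts (list median -0.57). Among them Myl7 had 13.8 to 47.4 FPKM in Cre-negative sham hearts and 0.23 to 43.0 in infarcted Cre-negative hearts. Lpl, Cd36 and Acsl1 are also expressed by adipocytes, and the part of these cells in the results was not tested.

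**Figure D3:**
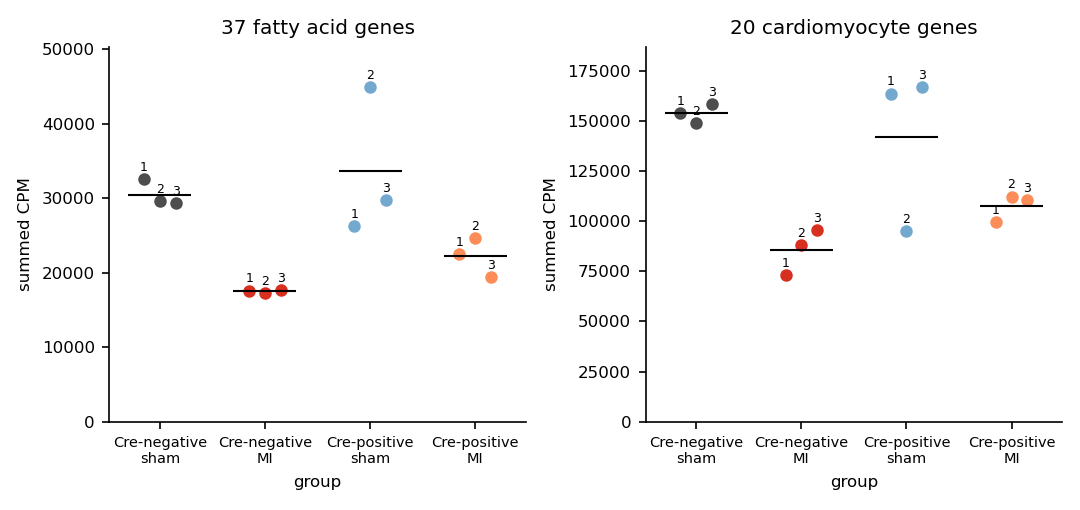
Summed CPM of the 37 fatty acid genes and of the 20 cardiomyocyte genes in each library (numbered points) of each group, with the group mean as a line. The fatty acid sum is lower after infarction in both genotypes without overlap, the cardiomyocyte sum without overlap in Cre-negative hearts only, and the second Cre-positive sham library is the highest for the fatty acid genes (44903 CPM) and the lowest sham library for the cardiomyocyte genes (94991 CPM).

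The members were also expressed relative to the cardiomyocyte list. The log2 CPM of each gene minus the mean log2 CPM of the 20 cardiomyocyte genes gave infarcted and sham groups that overlapped for 29 of the 37 genes in Cre-negative hearts (median difference -0.08, range -0.41 to 0.66) and for 31 in Cre-positive hearts (median -0.23). Without the second Cre-positive sham library the direction of the latter median turned, to 0.08 (range -0.40 to 0.52), with 5 genes lower and 8 higher without overlap. The Cre-negative median ran over -0.16 to -0.02 as single libraries were left out. Relative to that list Hadhb, Eci1, Etfb and Pcca were lower without overlap after infarction in Cre-negative hearts, by -0.30, -0.26, -0.22 and -0.24, and Abcd3, Hsd17b4, Acaa1a and Esrra were higher, by 0.31, 0.52, 0.66 and 0.18. In Cre-positive hearts Cpt1b (-0.53), Crat (-0.36), Eci1 (-0.66), Etfb (-0.35) and Ppara (-0.59) were lower and Acaa1a was higher (0.45). Without the second sham library these were -0.12, -0.14, -0.19, -0.18, -0.40 and 0.52. Their lack of overlap was fixed there, since leaving out a library cannot create an overlap. These are relative values within a library and carry no test. The share of all genes without overlap on this scale was not computed, so these counts and names have no background beside them.

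Genotype was compared among infarcted hearts. Cre-positive mice differ by the recombinase, the altered Postn locus and any loss of Yap, which this contrast cannot tell apart. All 37 genes had a higher fitted level in Cre-positive hearts, from 0.14 for Hsd17b4 to 0.54 for Ech1 on the log2 scale, with a median of 0.42. For 29 of the 37 the 3 Cre-positive libraries lay above the 3 Cre-negative ones in plain CPM, against 7.31% of all genes. No gene passed the test, and 0% of all genes did (edgeR, 0 called, 23 of the 37 and 12.6% of all genes at an unadjusted p under 0.05, smallest adjusted p = 0.224). The smallest p belonged to Etfb, at 0.42 ± 0.10 on the log2 scale. Larger differences with wider errors were 0.54 ± 0.22 for Ech1, 0.52 ± 0.20 for Ehhadh, 0.51 ± 0.21 for Acacb and 0.51 ± 0.37 for Ppargc1a.

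The call depended on the tool and on the libraries in the fit. In the authors' deposited table for the same libraries, 26 of the 37 genes were higher in Cre-positive hearts at an adjusted p under 0.05 (median log2 fold change 0.43), against 2.21% of its genes. DESeq2 on only the 6 infarcted libraries, added after the values were seen, called 27 of 37 (smallest adjusted p = 0.000163), against 4.11% of its genes. DESeq2 on all 12 libraries called 2 of the 37 genes, Acsl1 and Etfb, against 0.753% of its genes, and edgeR on only the infarcted libraries called 0 (smallest adjusted p = 0.0670, 34 of the 37 and 21.1% of all genes at an unadjusted p under 0.05). Without the second Cre-positive sham library, edgeR called 0 (smallest adjusted p = 0.0708, 35 of the 37 and 18.7% of all genes at an unadjusted p under 0.05).

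Other measures moved with genotype among infarcted hearts. All 20 cardiomyocyte genes had higher fitted levels in Cre-positive hearts (median 0.35, 10 without overlap), and all 12 macrophage genes (median -0.40) and all 10 activated fibroblast genes (median -0.42) had lower ones. All 7 tested adipocyte genes (median 0.99) and 4 of 5 tested atrial genes (median 1.0) had higher ones. The adipocyte sums overlapped, and 0 genes of these 2 lists were without overlap. After sham surgery all 12 macrophage genes (median -0.44) and 9 of 10 activated fibroblast genes (median -1.35) also had lower fitted levels in Cre-positive hearts. Of the 12 macrophage genes 0 were without overlap there. Their sums were 434, 123 and 319 CPM in Cre-positive sham 1, 2 and 3, against 355 to 447 in Cre-negative sham hearts. Of those fibroblast genes 3 were called, against 0.0512% of all genes. Of the 20 cardiomyocyte genes 7 had higher and 13 lower fitted levels after sham (median -0.03). Their sums were 163560, 94991 and 166751 CPM in Cre-positive sham 1, 2 and 3, against 148661 to 158346 in Cre-negative sham hearts. Among infarcted hearts, relative to the cardiomyocyte list, the genotypes overlapped for 36 of the 37 fatty acid genes (median difference 0.05, and -0.02 to 0.12 as single libraries were left out). Reads of Y-linked genes stood at 10 CPM or more in 3 of 3 infarcted Cre-negative libraries and 1 of 3 infarcted Cre-positive ones, and in 2 of 3 Cre-negative sham libraries and 0 of 3 Cre-positive ones. The part of cell make-up or sex in the genotype difference was not tested.

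**Figure D4:**
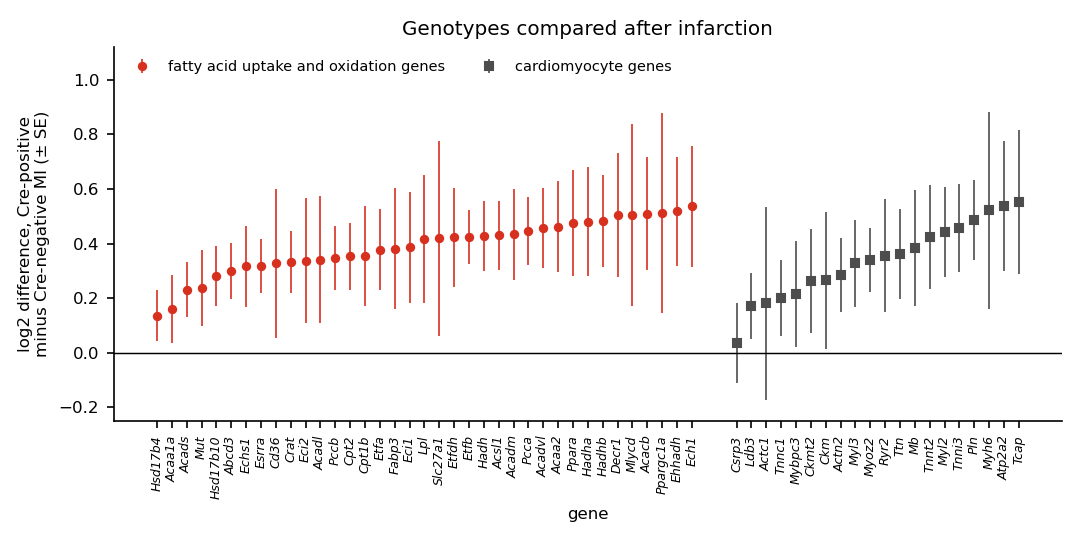
Log2 difference between infarcted Cre-positive and infarcted Cre-negative hearts for each of the 37 genes (circles) and each of the 20 cardiomyocyte genes (squares), with standard errors as bars. All 37 circles lie above 0, between 0.14 and 0.54, all 20 squares also lie above 0, and none passes the adjusted test in edgeR.

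After sham surgery the fitted genotype differences were smaller in the median. Of the 37 genes 29 had a higher and 8 a lower fitted level in Cre-positive hearts (median 0.17), 0 passed the test (edgeR, and 0 with DESeq2, 1 of the 37 and 8.22% of all genes at an unadjusted p under 0.05, smallest adjusted p = 0.590, 0.0512% of all genes passed) and 0 were without overlap upward, against 3.19% of all genes. Without the second Cre-positive sham library the median was -0.01. The interaction of infarction and genotype was positive, meaning a smaller fall in Cre-positive hearts, for 32 of 37 genes (median 0.24), with 0 called among them and 0% of all genes (edgeR, and 0 members with DESeq2, 5 of the 37 and 8.16% of all genes at an unadjusted p under 0.05, smallest adjusted p = 0.552). Without the second Cre-positive sham library that median was 0.44, with 0 members called (edgeR, smallest adjusted p = 0.269). In that fit 23 of the 37 were at an unadjusted p under 0.05, and the share of all genes was not computed.

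The second Cre-positive sham library stood apart from the other 5 sham libraries in these genes. It lay above all 5 for 24 of the 37 genes (64.9%) and below all 5 for 6 (16.2%), against 25.9% and 33.1% of all genes tested. By the same count Cre-positive sham 1 lay above the rest for 5 and below for 15, Cre-negative sham 1 for 3 and 0, Cre-negative sham 2 for 3 and 9, Cre-negative sham 3 for 2 and 6 and Cre-positive sham 3 for 0 and 1. Ppargc1a had 512 CPM there and 142 to 194 elsewhere in sham, and Slc27a1 had 644 CPM there and 205 to 299 elsewhere in sham. Mlycd and Cd36 were next by ratio to the median of the other sham libraries, with 252 CPM there and 76.3 to 127 elsewhere in sham, and 2640.3 CPM there and 1073 to 1754 elsewhere in sham. Mut, Echs1, Pcca, Acaa1a, Cpt2 and Acads were below the others. In the same library 13 of 20 cardiomyocyte genes were below the other 5 sham libraries and 5 above. Myh6, the adult myosin heavy chain, had 12802 CPM against 38896 to 48242 CPM in the rest, and Myh7, the slow form, 30419.7 CPM against 368 to 2727 CPM.

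The rest of the pathway was described with 60 further genes of fatty acid transport, storage and synthesis, of which 59 were tested. In Cre-negative hearts 32 fell and 5 rose (median -0.72), where 24.4% of all genes tested fell and 4090 of 13678 rose. In Cre-positive hearts 26 fell and 5 rose (median -0.41), where 19.5% of all genes tested fell and 3514 of 13678 rose. Among those that fell, Phyh, which starts the oxidation of phytanic acid, differed by -1.25 ± 0.11 in Cre-negative hearts (adjusted p = 1.97e-06, edgeR) and -0.74 ± 0.11 in Cre-positive hearts (adjusted p = 0.000149), and Rxrg, a partner of PPAR receptors, by -1.23 ± 0.11 and -1.08 ± 0.11. Dgat2, a triglyceride-forming enzyme, differed by -1.67 ± 0.15 and -0.86 ± 0.15, and Acat1, a mitochondrial thiolase of ketone metabolism, by -1.12 ± 0.13 and -0.79 ± 0.13. The genes that rose in both genotypes were Fabp5, Cpt1c, Acsl4, Acsl5 and Slc27a6. Of these Slc27a6 lay at 0.0818 to 0.292 CPM in the 6 sham libraries, about 3 counts or fewer. It lay at 0.695 to 1.65 CPM in the infarcted libraries.

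The genes that rose belong to the same enzyme and carrier families as members of the set. Fabp5 had 17.9, 24.2 and 20.8 CPM in the Cre-negative sham hearts, 163, 122 and 126 in the infarcted Cre-negative hearts, 21.5, 18.2 and 16.5 in the Cre-positive sham hearts and 93.7, 72.2 and 94.8 in the infarcted Cre-positive hearts. Every infarcted library was above every sham library, and Fabp5 was 5.53-fold higher in Cre-negative hearts (log2 difference 2.47 ± 0.15, adjusted p = 1.91e-07, edgeR) and 3.95-fold higher in Cre-positive hearts (1.98 ± 0.15, adjusted p = 1.09e-06). Cpt1c differed by 1.69 ± 0.16 and 1.67 ± 0.16 and Acsl5 by 1.27 ± 0.16 and 1.37 ± 0.16. The share of each cardiac form in the FPKM of its family, grouped after the values were seen, was lower after infarction. Acsl1 made up 94.8 to 96.0% in Cre-negative sham hearts, 84.9 to 87.0% in infarcted Cre-negative hearts, 96.2 to 96.9% in Cre-positive sham hearts and 89.3 to 91.1% in infarcted Cre-positive hearts of 5 long-chain synthetases. Fabp3 made up 87.0 to 88.9% in Cre-negative sham hearts, 73.4 to 82.0% in infarcted Cre-negative hearts, 90.9 to 91.5% in Cre-positive sham hearts and 75.4 to 85.4% in infarcted Cre-positive hearts of Fabp3, Fabp4 and Fabp5. Cpt1b made up 91.8 to 94.6% in Cre-negative sham hearts, 80.0 to 88.3% in infarcted Cre-negative hearts, 91.8 to 94.8% in Cre-positive sham hearts and 85.7 to 88.8% in infarcted Cre-positive hearts of the 3 Cpt1 forms. For Slc27a1 the Cre-positive ranges overlapped, at 87.5 to 96.3% in sham and 82.9 to 89.9% in infarcted hearts.

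**Figure D5:**
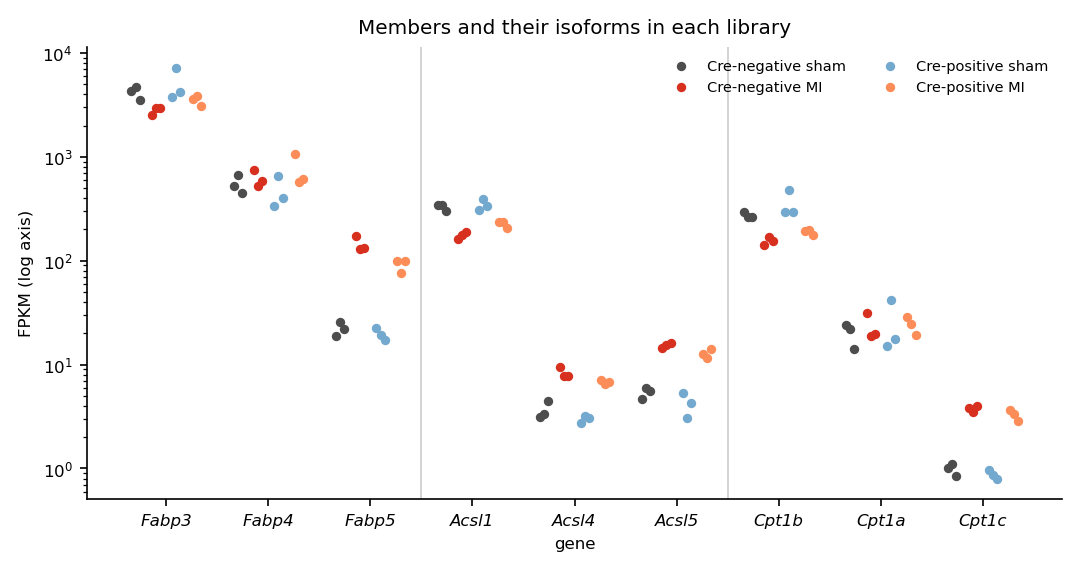
FPKM (log axis) of Fabp3, Acsl1 and Cpt1b and of related forms of each in every library (points), coloured by group. The cardiac form is the highest of its family in every library, and Fabp5 and Cpt1c are higher in infarcted than in sham hearts.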

How the data were processed

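The 12 libraries hold 3 left ventricles in each of 4 groups, grouped by the labels. Per the submitters' processing notes, the authors used Bowtie2 2.2.5, RSEM 1.2.12 and mm10. The deposited file of each library gives expected counts and FPKM per gene, per the file headers, and 4 deposited tables give the authors' own log2 fold changes and adjusted p-values, which per the labels of the files came from DESeq2. Strand of the library is not given in the sources used here.

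Expected counts were rounded and tested in R 4.3.3 with edgeR 4.0.16 (limma 3.58.1). The filter on low counts (filterByExpr, minimum count 10) kept 13678 genes of 17471. With TMM factors, all 12 libraries entered 1 quasi-likelihood fit that had a coefficient for each group, with two-sided tests adjusted by Benjamini and Hochberg within each contrast and calls at 0.05. Errors of log2 differences are standard errors of that model, errors of FPKM are SD over 3 libraries. CPM were computed over plain library totals, 10257675 to 15176286 expected counts, so 3 counts stand for 0.198 to 0.292 CPM, which covers counting error only. For 3 libraries against 3, an exact permutation test cannot give a p below 0.1, so none is reported. DESeq2 1.42.0 was an alternative.

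In each role the 2 genes with the smallest p for infarction in Cre-negative hearts are given with all values, and others by range or log2 difference. Of the other pathway genes that fell, the 3 with the smallest p for infarction in each genotype are named (4 genes in all), and all 5 that rose are named. The 37 genes, the gene lists and the tests were chosen with earlier results of these data known. Positions and promoters come from RefSeq on GRCm38.p6, matched by Entrez identifier.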

Additional observations from a re-analysis of the deposited data

How the results depend on the processing

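The direction of the median of the fitted differences held under every scaling, filter, tool and left-out library tried, for the infarction contrasts and for genotype after MI. With library totals in place of TMM the medians for infarction moved to -0.82 in Cre-negative and -0.62 in Cre-positive hearts, with 32 and 28 genes lower. Genotype after MI gave 2 genes higher with DESeq2 and 27 with DESeq2 on only the groups compared, the latter added after the data were seen. The cause of the difference between tools was not tested. Leaving out 1 library at a time gave 34 to 37 genes lower in Cre-negative and 28 to 36 in Cre-positive hearts, with medians of -1.16 to -1.04 and -0.99 to -0.69, and 0 called for genotype after MI (medians 0.34 to 0.47). Medians ranged from -0.01 to 0.27 for genotype after sham and from 0.16 to 0.44 for the difference of the injury response. Replicate numbers did not pair the samples: correlations of the deviations from the group means were -0.154 to 0.288 over 18 same-numbered pairs and -0.309 to 0.220 over the other 36. The replicate block gave 35 and 34 genes lower, losing the Cre-negative call of Acaa1a, and 0 called for genotype after MI. Relative to the cardiomyocyte list, leaving out 1 library at a time gave medians of -0.164 to -0.0190 and -0.438 to 0.0751 for infarction in Cre-negative and Cre-positive hearts and -0.0196 to 0.12 for genotype after MI, an alternative chosen after seeing the data, and the direction turned without Cre-positive sham 2 for infarction in Cre-positive hearts and without Cre-positive MI 1 or Cre-negative MI 3 for genotype after MI. The depth of 10257675 or more counts per library limits Ehhadh, the lowest member, most.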

Other observations

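Further genes of lipid and fuel use outside the 37 also stood out in the second Cre-positive sham library, and these were chosen after their values were seen. Acot1, an acyl-CoA thioesterase with near-identical relatives, had 252 CPM against 8.17 to 21.0 CPM in the remaining sham hearts. Pdk4, the kinase that shuts down pyruvate dehydrogenase, had 2003 CPM against 55.2 to 521 CPM. Plin5, a lipid droplet coat protein of oxidative tissue, had 304 CPM against 72.4 to 119.9 CPM, and Pnpla2, the adipose triglyceride lipase, 1633 CPM against 515 to 896 CPM.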
